A study of Mus musculus with 120 samples.

Results

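The bacterial family Eggerthellaceae was followed through a 16S rRNA gene survey of mouse gut contents, with Enterorhabdus as its main genus. Its members were all sequence variants that the deposited taxonomy places in Eggerthellaceae, which selected 153 of 13844 variants and 8 of 454 named genera. Each variant is a distinct 16S sequence with a count in every library. The taxonomy alone chose the members, without regard to their counts. Variants are numbered here by their summed count over all libraries, so that V1 is the most counted.

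The libraries came from C57BL/6N mice that were 10 weeks old, each in a cage of its own. After 7 days of acclimatisation they spent 42 days under 1 of 5 light cycles, written as hours of light and dark: LD0/24 (constant dark), LD8/16, LD12/12, LD16/8 and LD24/0 (constant light). Antibiotic-treated mice (ABX) drank a cocktail of broad-spectrum antibiotics, and chow mice (CD) did not; both had the same chow. The design held 240 mice, 24 per combination of light cycle and diet. Contents of the cecum and of the colon gave 120 libraries, of which 30 were cecum ABX, 31 cecum CD, 29 colon ABX and 30 colon CD. Every combination of site, diet and light cycle had 6 libraries except colon ABX LD8/16 with 5 and cecum CD LD8/16 with 7. The labels do not say which cecum and colon libraries came from 1 mouse.

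Eggerthellaceae are anaerobic Actinobacteria of the class Coriobacteriia that live in the gut at low abundance. Enterorhabdus and Parvibacter were first isolated from mouse intestine. Other members are known for their chemistry: Adlercreutzia converts soy isoflavones to equol, Gordonibacter converts ellagic acid to urolithins, and Eggerthella lenta inactivates the heart drug digoxin.

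The 120 libraries held 39157 to 73076 counts each, with a median of 63694.5. All values below are shares of a library's total count, so fewer of these bacteria and more of the other bacteria cannot be told apart. The file holds no value of 1, so a variant is "seen" in a library at 2 counts or more, and a value of 0 does not show absence. Klebsiella, Parabacteroides, Bacteroides, Enterococcus and Pantoea together averaged 89.8% of the counts in cecum ABX libraries and 0.772% in cecum CD libraries. In the colon they averaged 89.7% in ABX libraries and 2.35% in CD libraries.

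Nearly all of the family's counts came from mice without antibiotics: 57580 of its 57774 counts lay in chow libraries and 194 in antibiotic libraries. It made up 0.755% of all counts of the study. Enterorhabdus supplied 96.8% of the family's counts, with 55900 counts over 136 variants. Parvibacter had 1135 counts over 6 variants. Gordonibacter had 278 counts in 1 variant, and Adlercreutzia had 271 counts over 3 variants. Eggerthella had 98 counts over 3 variants and DNF00809, a genus known only by a code name, had 88 counts over 2. Cryptobacterium and Slackia, both of which include oral and gut anaerobes, had 1 variant and 2 counts each, in 1 cecum ABX and 1 cecum CD library.

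Eggerthellaceae were far lower with antibiotics at both sites. In the cecum, ABX libraries held 0% to 0.0308% Eggerthellaceae with a median of 0.00377%, against 0.506% to 7.45% with a median of 1.48% in CD libraries. In the colon, ABX libraries held 0% to 0.0137% with a median of 0%, against 0.182% to 1.75% with a median of 0.491% in CD libraries. The highest antibiotic library lay below the lowest chow library at each site, so the groups did not overlap. Other families common on chow varied in this. Muribaculaceae (highest ABX 0.559% and lowest CD 1.27% in the cecum) and Desulfovibrionaceae (1.73% and 3.43%) did not overlap at either site. Rikenellaceae overlapped in the colon only, and Lachnospiraceae and Oscillospiraceae at both sites. The share of all families without overlap was not counted. The family was seen in 16 of 30 cecum ABX libraries and in 11 of 29 colon ABX libraries, and in every chow library.

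In edgeR's quasi-likelihood test with Benjamini-Hochberg adjustment over all families, the family's log2 fold change with antibiotics was -8.77 ± 0.63 (SE, adjusted p = 7.64e-21) in the cecum. The colon value was -7.73 ± 0.57 (adjusted p = 2.38e-19). The background of such calls was large: 45.5% of families in the cecum and 55.4% in the colon were called lower. With 1 family in the count, the call itself is no rarity, and the size of the change is what the values add.

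**Figure D1:**
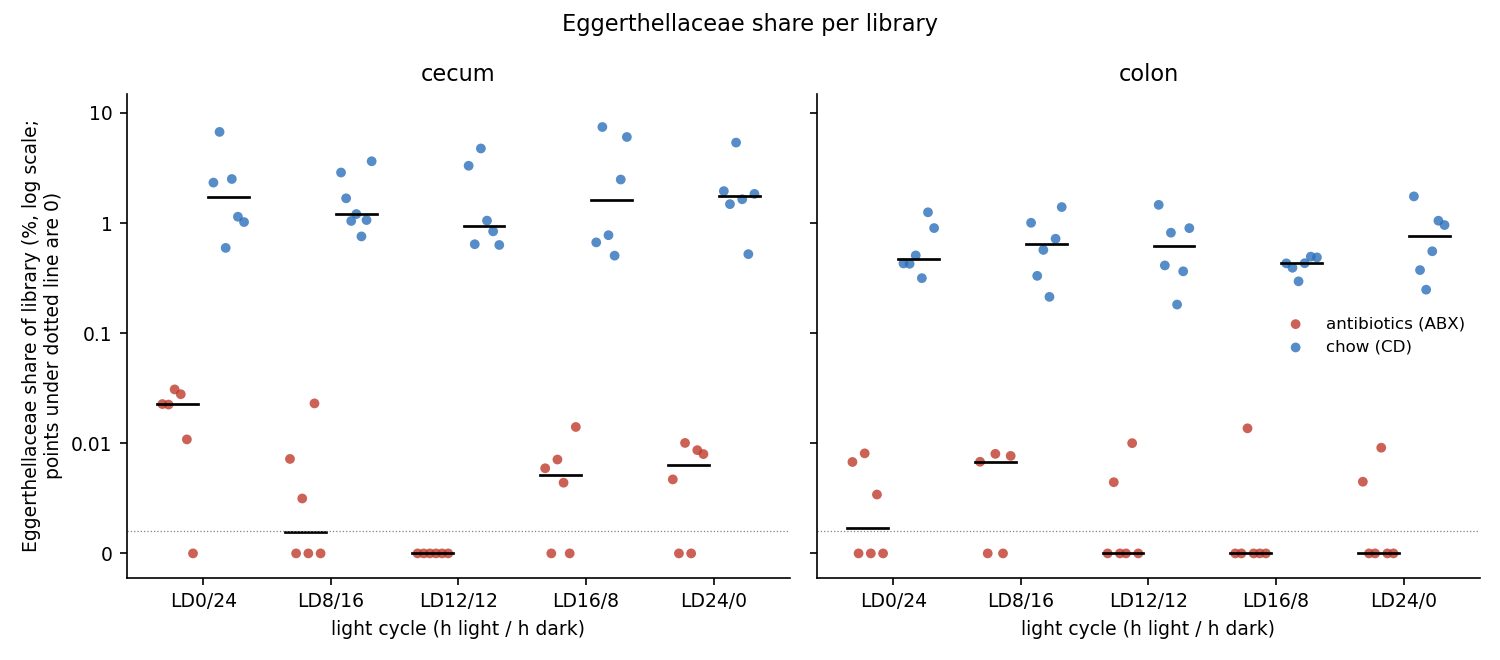
Share of each library's counts in Eggerthellaceae (percent, log axis with zeros drawn at the bottom), one point per library, by light cycle, site and diet; bars are medians. All ABX points lie below all CD points of the same site, and cecum CD points reach 7.45%, against 1.75% in colon CD.

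Enterorhabdus accounted for this difference. It averaged 0.00475% ± 0.00616 (SD, n = 30) in cecum ABX libraries and 2.14% ± 1.89 (SD, n = 31) in cecum CD libraries. The log2 fold change was -9.00 ± 0.65 (SE, edgeR adjusted p = 2.24e-20). In the colon its counts were those of the whole family in ABX libraries, and its log2 fold change was -7.68 ± 0.59 (edgeR adjusted p = 1.67e-18). In ABX libraries it had 96 counts in all in the cecum and 52 in the colon, against 44020 and 11732 counts in the CD libraries of these sites. The median of all genera tested was also lower with antibiotics, at -2.87 in the cecum and -3.62 in the colon.

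The minor chow genera were listed at 0 in every antibiotic library. Parvibacter was counted in 0 of 30 cecum ABX libraries and in 21 of 31 cecum CD libraries, and in 0 of 29 colon ABX and 11 of 30 colon CD libraries. Gordonibacter was counted in no ABX library, against 12 of 31 cecum CD and 15 of 30 colon CD libraries. Adlercreutzia was likewise at 0 with antibiotics and was seen in 8 cecum CD and 6 colon CD libraries. DNF00809 was at 0 with antibiotics and was seen in 11 cecum CD and 4 colon CD libraries. Many chow libraries were at 0 as well, so the groups overlapped for each of these genera, and a fitted fold against a group at 0 is no measure of size.

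Of the family's genera, 5 of the 5 tested in the cecum and 4 of the 4 tested in the colon were called lower with antibiotics, where 58% and 64.3% of all genera tested were. Only genera with at least 3 counts in at least 5 libraries of the comparison were tested, which left out Eggerthella, Cryptobacterium and Slackia at both sites and DNF00809 in the colon. In the colon 43 genera were called higher and 166 lower, against 80 and 145 with TMMwsp factors, 57 and 111 with DESeq2 and 107 and 92 with limma on centred log-ratios. Passing that filter needed counts in chow libraries, so these counts are not read as a property of the family. With limma on centred log-ratios Adlercreutzia, Parvibacter and Gordonibacter were not called in the colon, and the sign of the first 2 turned. In the cecum limma called 4 of 5 family genera lower, where 112 of 255 genera were. DESeq2 called 2 of 4 lower in the colon and 4 of 5 in the cecum, where 111 of 258 and 111 of 255 genera were. Other scalings kept Enterorhabdus called lower at both sites, between -8.79 and -8.44 in the cecum and between -6.45 and -5.70 in the colon.

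Enterorhabdus was not the only chow-associated group to fall. Of 5 other families common in chow-fed mouse gut, 5 were called lower with antibiotics at both sites. Over all families tested, 45.5% in the cecum and 55.4% in the colon were called lower. These 5 were listed as common on chow, so their count is not read as a property of them. Among the other Coriobacteriia families, 3 of 3 tested were lower in the cecum and 1 of 2 in the colon, where Atopobiaceae had a log2 fold change of -5.84 ± 0.90 (SE). Bifidobacteriaceae, from the same phylum, went the other way in the colon, with 1.89 ± 0.79 (edgeR adjusted p = 0.0281).

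The residue in antibiotic libraries was made of variants that were also found on chow. Of 14 family variants seen in any ABX library, 13 were seen on chow, and the exception was the Cryptobacterium variant with its 2 counts. V1, the leading Enterorhabdus variant, gave 40 counts in 10 cecum ABX libraries and 12 counts in 3 colon ABX libraries. V9 gave 22 counts in 3 cecum ABX libraries and 6 in 2 colon ABX libraries. Eggerthella V37 gave 34 counts in 3 cecum ABX libraries and was rare on chow, with 42 counts in 4 chow libraries. Eggerthella V55 gave 10 counts in 1 cecum ABX library and 10 in 1 chow library. Neither was seen in a colon ABX library. No Enterorhabdus variant had more than 10 counts in an antibiotic library. Whether these counts came from live cells, residual DNA or reads assigned to the wrong library was not tested.

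For single variants the first value given is from a permutation of library labels within light cycles, a test added after seeing the data, and the edgeR fit follows it. With antibiotics, 26 of 32 family variants tested in the cecum and 20 of 22 in the colon were called lower, where 57.1% and 63.3% of all variants tested were. None was called higher. Of these tested variants, 23 of 32 and 15 of 22 were at 0 in every antibiotic library of the site and passed the filter on low counts through chow libraries alone, so the counts are not read against the background. The edgeR fit called all of these tested variants lower, 32 of 32 and 22 of 22, where 71.4% and 76.9% of all variants were.

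On chow, the cecum carried a larger share of the family than the colon. Eggerthellaceae averaged 2.21% ± 1.94 (SD, n = 31) in cecum CD libraries and 0.655% ± 0.406 (SD, n = 30) in colon CD libraries, a ratio of means of 3.37. The distributions overlapped: 13 of 31 cecum libraries lay above every colon library, and 16 of 30 colon libraries lay below every cecum library. The log2 fold change of cecum over colon was 1.75 ± 0.32 (SE, edgeR adjusted p = 3.03e-06), where 10.9% of families were called higher in the cecum. The cecum was also the more variable site, with an SD close to its mean.

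Enterorhabdus set this contrast too. It ranged over 0.495% to 7.05% with a median of 1.47% in cecum CD libraries, and over 0.179% to 1.71% with a median of 0.481% in colon CD libraries. Its log2 fold change was 1.76 ± 0.35 (SE, edgeR adjusted p = 1.25e-05), and leaving out 1 replicate number at a time kept it between 1.48 and 1.96. The median of all genera tested was -0.17 in this fit and 0.57 with TMMwsp factors, under which Enterorhabdus stood at 3.09. DESeq2 gave 2.52 and limma on centred log-ratios 2.38, and each called it.

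Of the 5 family genera tested on chow, 3 were called higher in the cecum and none lower, where 13.6% of all genera tested were called higher. Over all genera 37 were called higher in the cecum and 81 lower, against 77 and 74 with TMMwsp factors, 46 and 55 with DESeq2 and 82 and 54 with limma. The folds of the rarer Parvibacter and DNF00809 were larger than that of Enterorhabdus. Parvibacter averaged 0.0535% ± 0.104 in cecum CD libraries and 0.00367% ± 0.00720 in colon CD libraries. Its highest cecum library held 247 counts and its highest colon library 19. The log2 fold change was 3.47 ± 0.85 (SE, edgeR adjusted p = 0.000352), and 9 cecum libraries lay above every colon library. Leaving out 1 replicate number at a time gave 2.81 to 4.67, each called. DNF00809 stood 2.62 ± 0.78 higher (log2, adjusted p = 0.00349) on 76 cecum and 12 colon counts. Without replicate 1 of each group its value was 1.70 (adjusted p = 0.106).

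Adlercreutzia and Gordonibacter were not called between the sites. Adlercreutzia had 161 counts in cecum CD libraries and 110 in colon CD libraries, a log2 difference of 0.88 ± 0.99 (SE, edgeR adjusted p = 0.542). Gordonibacter ran the other way in its counts, with 118 in cecum CD and 160 in colon CD libraries, and its value was -0.70 ± 0.84 (adjusted p = 0.566). With the genera that lead the antibiotic libraries and the skin and reagent genera left out of the total, 13 listed genera in all, Enterorhabdus averaged 2.15% in the cecum and 0.652% in the colon, a ratio of 3.30. The site contrast was about as large without them.

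**Figure D2:**
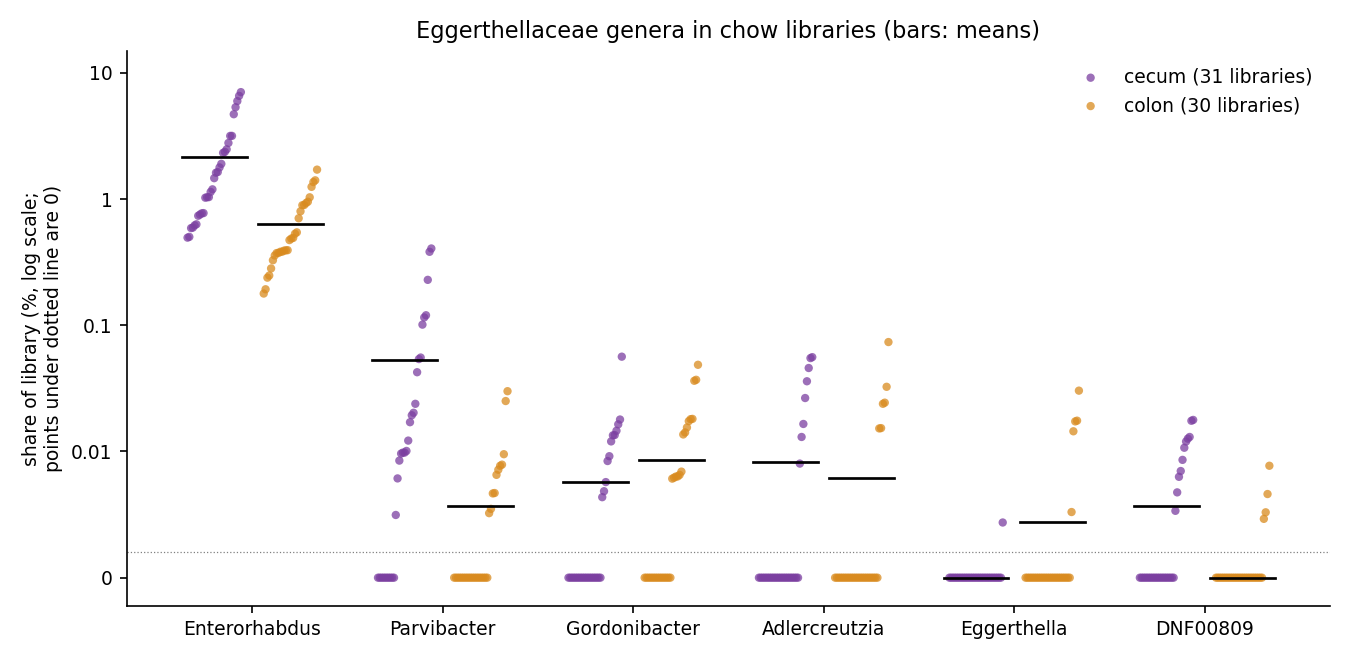
Shares of the family's genera in chow libraries (percent of a library's counts, log axis), one point per library with zeros under the dotted line, cecum left of colon; bars are means over all libraries, and means too small for the axis are drawn at 0. Enterorhabdus lies above the other genera in every library, and Parvibacter reaches 0.406% in the cecum, against 0.0301% in the colon.

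Under antibiotics the sites could not be separated. Enterorhabdus averaged 0.00475% ± 0.00616 in cecum ABX libraries and 0.00284% ± 0.00409 in colon ABX libraries. The log2 fold change was 0.36 ± 0.86 (SE, edgeR adjusted p = 0.820), and the sign turned with TMMwsp factors (-0.17). It was the only family genus tested there and was not called, where 46% of all genera were. The diet effect in the cecum minus that in the colon, tested as an interaction, was -1.14 ± 0.69 for Enterorhabdus (adjusted p = 0.197), so it was not called at edgeR's total-count scaling, where 42.9% of all genera were. It was called under TMMwsp factors (-3.20, adjusted p = 0.000196), DESeq2 (-1.60, adjusted p = 0.0420) and limma (-1.94, adjusted p = 0.00234). Of all 322 genera tested, 175, 95 and 192 were called under these settings in the same order. The medians of all genera there were -1.28, -0.40 and -0.87.

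Light cycle gave no called change of the family on chow. In the order of hours of light 0, 8, 12, 16 and 24, Eggerthellaceae averaged 0.638%, 0.706%, 0.689%, 0.422% and 0.822% in the colon. The cecum means in the same order were 2.39%, 1.75%, 1.87%, 2.99% and 2.14%. The edgeR test for any difference among the 5 cycles gave an adjusted p of 0.805 in the colon and 0.875 in the cecum, where 26.1% and 22.9% of families were called. LD16/8 had the lowest mean of the 5 in the colon and the highest in the cecum.

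Enterorhabdus followed the same pattern. In colon CD libraries its lowest, median and highest shares were 0.239%, 0.443% and 1.25% in LD0/24, and 0.193%, 0.625% and 1.37% in LD8/16. They were 0.179%, 0.596% and 1.41% in LD12/12, 0.282%, 0.388% and 0.487% in LD16/8, and 0.248%, 0.743% and 1.71% in LD24/0. The LD16/8 libraries were the tightest of the 5 groups in the colon, and all groups overlapped. Against LD12/12 the log2 fold changes were -0.14 ± 0.63 in LD0/24, 0.01 ± 0.63 in LD8/16, -0.75 ± 0.64 in LD16/8 and 0.27 ± 0.63 in LD24/0 (SE). None was called, where 1.8%, 0%, 3.6% and 18% of all genera were in the same order, and the sign of the LD0/24 value turned under 3 other scalings.

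In cecum CD libraries the lowest, median and highest Enterorhabdus shares were 0.590%, 1.73% and 6.58% in LD0/24, and 0.738%, 1.20% and 3.17% in LD8/16. They were 0.620%, 0.899% and 4.71% in LD12/12, 0.502%, 1.63% and 7.05% in LD16/8, and 0.495%, 1.70% and 5.35% in LD24/0. All 5 ranges overlapped, and each group held libraries under 1% and over 3%. The log2 fold changes against LD12/12 were 0.33 ± 0.87 in LD0/24, -0.14 ± 0.84 in LD8/16, 0.67 ± 0.87 in LD16/8 and 0.21 ± 0.87 in LD24/0 (SE). None was called, where 3.78% of all genera were in LD24/0 and 0% in the other cycles. The adjusted p for any light cycle was 0.861 in the colon and 0.953 in the cecum.

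Of the family's genera on chow, 0 of 4 tested in the colon and 0 of 5 in the cecum were called for light in edgeR, where 22.1% and 15.7% of all genera were. At an unadjusted p under 0.05, 1 colon genus and 0 cecum genera passed. The colon genus was Adlercreutzia (adjusted p = 0.0533), which was seen in 2 libraries each of LD0/24, LD16/8 and LD24/0 and in none of LD8/16 or LD12/12. The permutation test gave it an adjusted p of 0.576. With TMMwsp factors it was called (adjusted p = 0.0332), where 48 of 222 genera were. With no filter Adlercreutzia (adjusted p = 0.0107) and Eggerthella (adjusted p = 0.0010) were called, where 95 of 376 genera were. TMMwsp factors also called 1 of 4 family genera higher in colon CD LD24/0 against LD12/12, where 12 of 222 genera were called higher.

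The ratio of cecum to colon stood above 1 in every light cycle. For the family the ratio of means was 3.74 in LD0/24, 2.48 in LD8/16, 2.72 in LD12/12, 7.08 in LD16/8 and 2.60 in LD24/0. In LD16/8 the 6 cecum CD libraries held 0.595%, 7.05%, 0.775%, 0.502%, 2.48% and 5.99% Enterorhabdus. The 6 colon CD libraries of LD16/8 held 0.383%, 0.374%, 0.282%, 0.394%, 0.474% and 0.487%. These groups did not overlap, although the lowest cecum library lay only just above the highest colon library. A test of whether the site difference varied with light cycle gave Enterorhabdus an adjusted p of 0.882 in edgeR, and 0 of 5 family genera were called, where 16.9% of all genera were.

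With antibiotics the cecum showed an uneven spread of the few remaining counts over light cycles. Eggerthellaceae were listed at 0 in all 6 cecum ABX LD12/12 libraries, and were seen in 5 of 6 LD0/24, 3 of 6 LD8/16, 4 of 6 LD16/8 and 4 of 6 LD24/0 libraries. Their summed counts were 77 in LD0/24, 22 in LD8/16, 22 in LD16/8 and 21 in LD24/0. The LD0/24 counts were 44 of Eggerthella, 31 of Enterorhabdus and 2 of Cryptobacterium. All counts in the other cycles were Enterorhabdus. The family's adjusted p for any light cycle was 0.0497 in edgeR, where 12.9% of families were called, and 0.0445 in the permutation test, where 24.7% were. It was over the threshold under 5 other settings, and leaving out 1 library at a time gave 0.0302 to 0.103, with the call lost for 19 of 30 libraries.

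Enterorhabdus alone had an adjusted p of 0.163 for any light cycle in the cecum ABX libraries, where 17.7% of genera were called. Against LD12/12 it was called higher in LD8/16 (edgeR adjusted p = 0.0380, where 8.86% of genera were called) and in LD24/0 (adjusted p = 0.0491, where 7.59% were). LD0/24, with the most Enterorhabdus counts (31), was not called (adjusted p = 0.0535). Both calls were lost with DESeq2, limma, no filter and the replicate block, and in 8 and 21 of 30 refits without 1 library. Neither call has a fold, since LD12/12 was at 0. The highest of these libraries held 15 counts. In colon ABX libraries the genus was seen in 3, 3, 2, 1 and 2 libraries in the order of hours of light, and its adjusted p was 0.996, where 31.9% of genera were called.

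Eggerthella had a distribution unlike that of its relatives. It was seen in 4 of 6 cecum ABX LD0/24 libraries, with 13, 10, 7 and 14 counts, and in no other cecum ABX library. It was also seen in 5 of 6 colon CD LD8/16 libraries, with 2, 10, 12, 9 and 19 counts, and in no other colon CD library. The only other counts were 2 in 1 cecum CD LD12/12 library. It was counted in 0 of 29 colon ABX libraries. Its diet effect was called different between cecum and colon in edgeR (adjusted p = 3.40e-04) and not with limma on centred log-ratios (adjusted p = 0.514). The call rests on colon ABX libraries at 0 and 2 counts in cecum CD libraries, so no size is given.

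The same 2 groups shared other rare genera. A rule was drawn around these 2 groups after their values were seen. It asked for at least 3 libraries of each of cecum ABX LD0/24 and colon CD LD8/16 and at most 10 of the 108 others. Of 583 genus entries 8 met it, Eggerthella among them. No other pair of groups was counted, so this number has no background. Parascardovia, a bifidobacterial relative found in the mouth, was seen in 3 of 6 and 4 of 6 of these libraries and in 0 of the 108 others. The Clostridium innocuum group was seen in 3 of 6 and 3 of 6 of them and likewise in 0 of the 108 others. Hungatella, a gut Clostridia genus, was seen in 4 of 6 and 4 of 6 of them and in 8 of the 108 others. Johnsonella, Ottowia and F0058 were seen in 10, 7 and 8 of the 108 others, so these genera were less limited to the 2 groups than Parascardovia. Whether the 2 groups shared a preparation step was not tested.

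Within Enterorhabdus, few variants held most of the counts. V1 had 29.3% of the family's counts, the leading 3 variants had 48.5% and the leading 10 had 77.0%. At the other end, 101 of 153 variants were seen in 1 library only, with 666 counts between them, 1.15% of the family's counts. A further 28 variants were seen in 2 to 10 libraries and 24 in more than 10. The most counted of the variants seen once had 33 counts. Only 3 of the 153 variants carried a species name, so the variants cannot be tied to described species.

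V1 was the one variant seen in every chow library of both sites. It averaged 0.641% ± 0.916 in cecum CD libraries and 0.194% ± 0.154 in colon CD libraries. It led the family in 18 of 31 cecum CD libraries and in 19 of 30 colon CD libraries. Its part of the family's counts ran over 2.80% to 61.0% with a median of 23.7% in cecum CD libraries, and over 1.23% to 72.5% with a median of 31.1% in colon CD libraries. Without V1 the cecum to colon ratio of the family was 3.40, so the contrast was about as large without it.

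In the other chow libraries a different variant led. V7 made up 888 of 1204 family counts (73.8%) in replicate 6 of cecum CD LD24/0, although it was seen in only 8 of 31 cecum CD libraries. V5 led replicate 3 of cecum CD LD12/12 with 1582 of 3244 counts (48.8%), and V1 had 5.95% there. V3 led replicate 6 of colon CD LD12/12 with 271 of 548 counts (49.5%), with V1 at 2.92%. V2 led replicate 7 of cecum CD LD8/16 with 1067 of 2210 counts (48.3%). The leading variant's part of the family ran over 13.9% to 73.8% in cecum CD libraries and over 17.3% to 72.5% in colon CD libraries, with medians of 34.9% and 34.4%. The effective number of variants, which is the inverse of the sum of squared parts, had medians of 5.36 and 4.93.

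**Figure D3:**
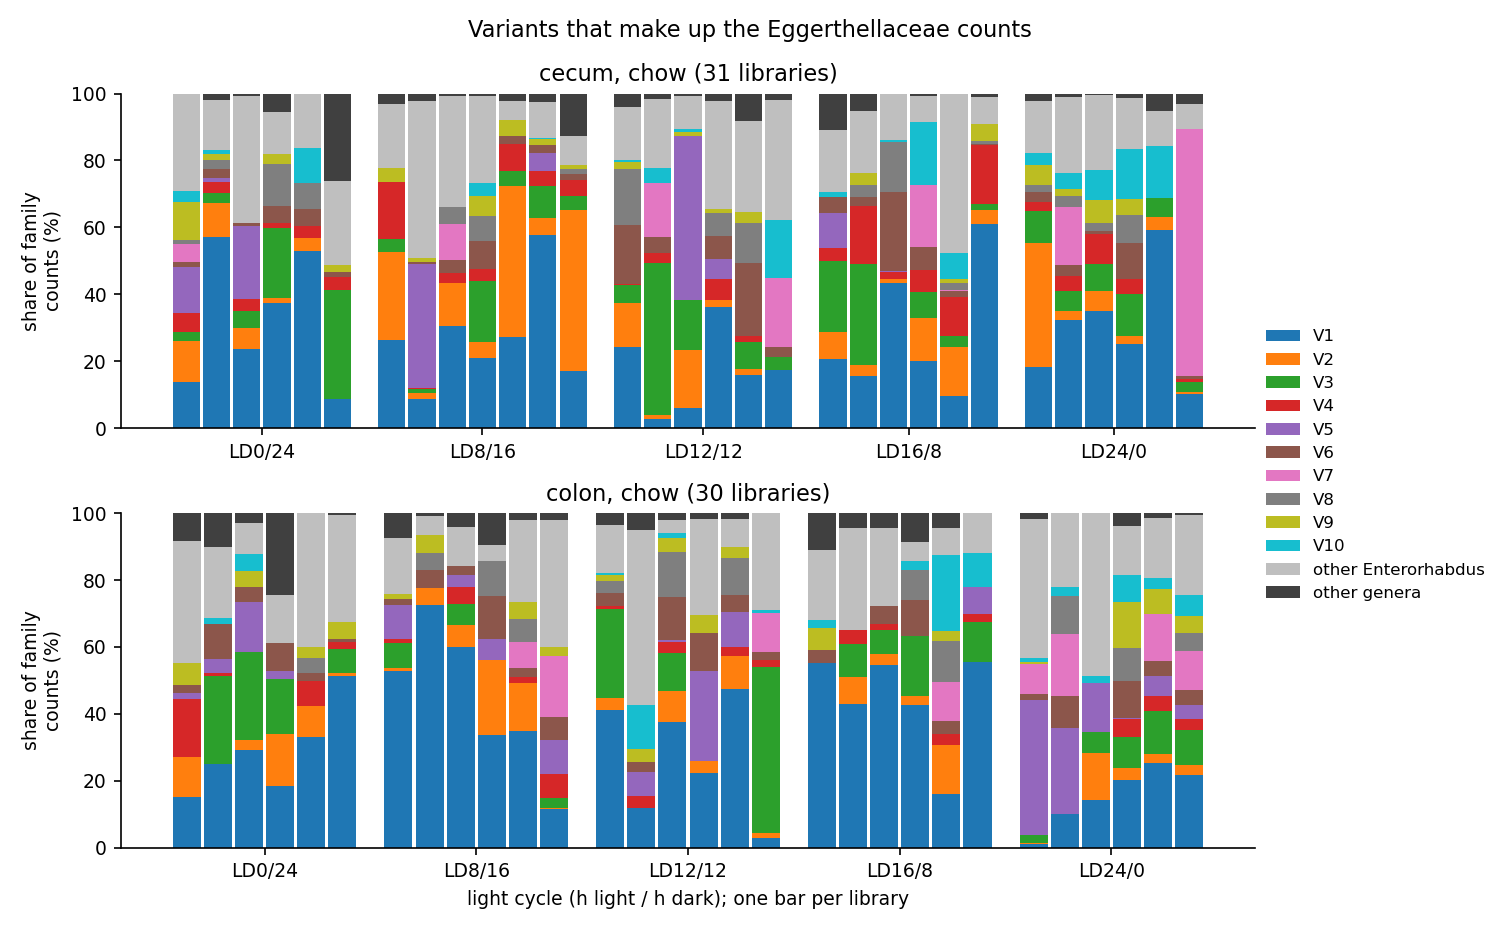
Parts of the family's counts held by Enterorhabdus V1 to V10, by the other Enterorhabdus variants and by the other genera, in each chow library (percent of the family's counts, stacked bars), cecum above colon and grouped by light cycle. V1 is present in every bar, and the bar with 73.8% V7 is replicate 6 of cecum CD LD24/0.

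In the permutation test 8 of 38 variants tested on chow were called higher in the cecum and none lower, where 2.35% of all variants tested were called higher. Differences are given on the log2 scale of scaled counts plus 1, which understates the change of rare variants. V4 had the largest, 2.37 (adjusted p = 0.00197), with 3214 counts in 29 cecum CD libraries and 351 counts in 20 colon CD libraries. V2 followed Enterorhabdus V16 (2.24, adjusted p = 0.00171) with 2.20 (adjusted p = 0.00526). V2 had 5030 counts in 29 cecum CD libraries and 542 in 25 colon CD libraries, a ratio of mean shares of 8.41.

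V1 itself differed by 1.32 (adjusted p = 0.00800). Whether the variants differed from each other in this contrast was not tested. Parvibacter V14 differed by 1.95 (adjusted p = 0.0102), and V20, V26 and V28 by 1.28 to 1.63. V3 had a difference of 2.01 and missed the threshold (adjusted p = 0.0505). V6, V8, V9 and V10 differed by 0.82, 1.52, 1.00 and 1.03 and were not called. The lowest value was that of V5, -0.98 (adjusted p = 0.518), which was seen in 10 cecum CD and 19 colon CD libraries. Its summed count was 2479 in cecum CD libraries, of which 1582 lay in 1 library. In colon CD libraries it was 959, of which 489 lay in 1 library. The edgeR fit called 11 of the 38 higher, where 9.12% of all variants were.

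**Figure D4:**
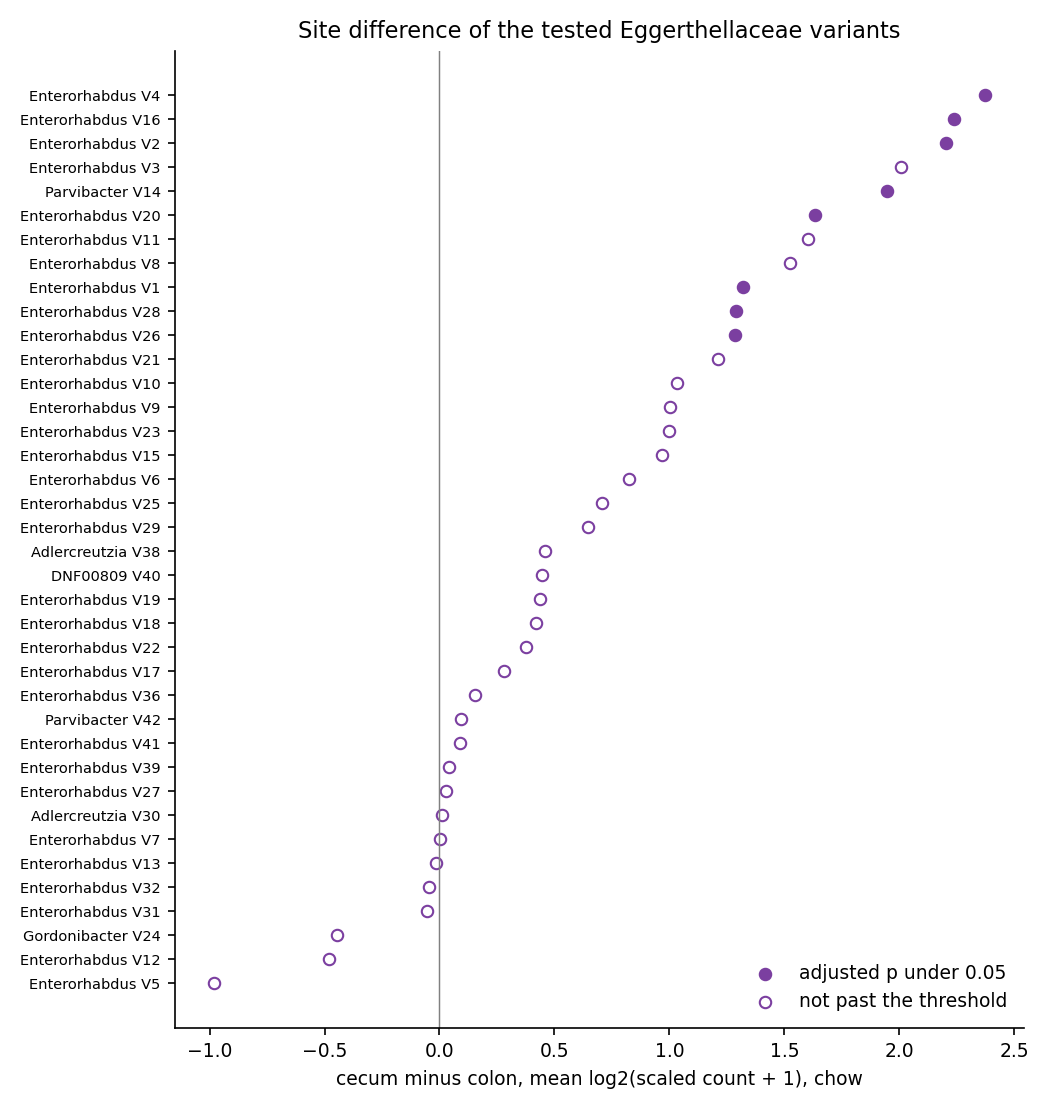
Difference of cecum CD and colon CD libraries for the 38 tested family variants (log2 of scaled counts plus 1, horizontal axis), one row per variant; filled points have a permutation adjusted p under 0.05. The 8 filled points all lie above 0, with V4 at 2.37, and V5 lies lowest at -0.98.

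No variant was called for light on chow in the permutation test, 0 of 22 in the colon and 0 of 32 in the cecum, where 8.64% and 1.19% of all variants were called. The edgeR fit called 1 in the colon (V13) and 6 in the cecum (V5, V18, V22, V25, V27 and Adlercreutzia V38), where 16.5% and 19.1% of all variants were. Each was seen in at most 10 libraries of its site. V13 had 455 of its colon CD counts in 1 LD24/0 library, and V18 reached 0.846% in 1 cecum CD LD16/8 library and at most 0.0163% in any library of the other 4 cycles. Their permutation p before adjustment ran over 0.139 to 0.662.

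Cecum libraries also held more different variants. A cecum CD library had 19.1 ± 5.77 family variants (SD, n = 31, 8 to 35) and a colon CD library 13.1 ± 3.30 (SD, n = 30, 7 to 21). The antibiotic libraries averaged 0.933 in the cecum and 0.448 in the colon. The number of variants followed the family's count across chow libraries, with a Spearman correlation of 0.693 in the cecum (n = 31) and 0.688 in the colon (n = 30), which share the count itself. Reduced to 112 family counts per library, the lowest count of any chow library, the means were 14.4 ± 3.11 in the cecum and 11.9 ± 2.43 in the colon. The means lay closer together at an equal family count.

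**Figure D5:**
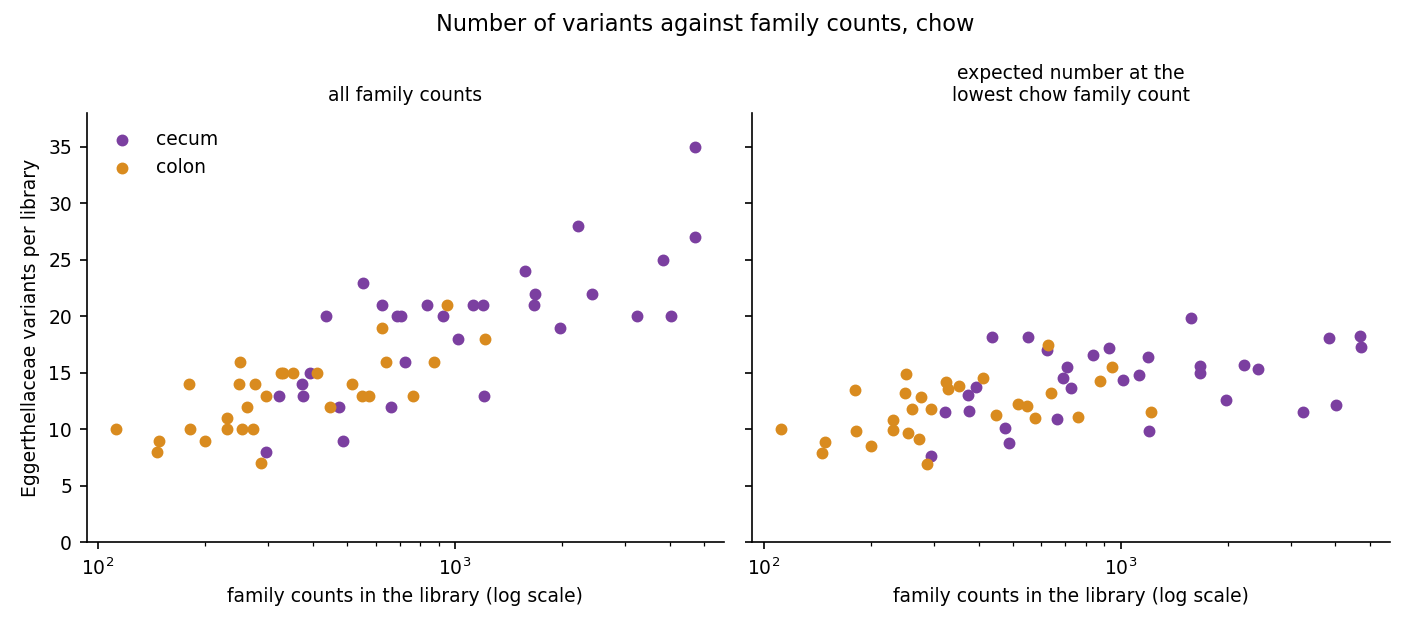
Number of Eggerthellaceae variants per chow library against the family's count in it (log axis), cecum and colon in different colours, as seen (left) and as the expected number at 112 family counts (right). On the left cecum libraries reach 35 variants and colon libraries 21; on the right the means are 14.4 and 11.9.

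On chow, 131 variants were seen in the cecum and 63 in the colon, and 42 were seen in both, 32.1% of the cecum's and 66.7% of the colon's. Over all variants of the table the shares were 32.4% and 38.2%. Among family variants seen in more than 1 library, 42 were seen in both sites, 82.4% of the cecum's and 97.7% of the colon's, against 80.8% and 76.9% over all such variants. The cecum held more family counts, and whether that sets these shares was not tested. Among the leading 10 variants, 31 of 45 pairs had a positive Spearman correlation of their shares across cecum CD libraries and 34 of 45 across colon CD libraries. V6 and V8 were closest in the cecum, with 0.911 (n = 31). V1 went with V9 (0.660), V8 (0.643) and V4 (0.601) there. These correlations share library totals and are given as descriptions.

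Among 50 genera averaging at least 0.1% on chow, those most like Enterorhabdus in their shares across libraries were chosen by the mean of the cecum and colon Spearman correlations. Desulfovibrio, a sulfate reducer, had 0.744 in the cecum (n = 31) and 0.309 in the colon (n = 30). Candidatus Saccharimonas, a member of the Patescibacteria with a reduced genome, had 0.504 and 0.469. Lactobacillus followed with 0.316 and 0.313, and Turicibacter with 0.143 and 0.206. Streptococcus had 0.307 and 0.0363. By this mean the likeness beyond the leading pair was weak. Some genera were like Enterorhabdus at 1 site only. Rikenella had 0.484 in the cecum and -0.159 in the colon, and Candidatus Arthromitus had -0.263 and 0.419. Opposite relations reached a similar size, with Intestinimonas at -0.539 and -0.418.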

How the data were processed

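Bacterial 16S rRNA genes from cecal and colonic contents were sequenced with Pacific Biosciences SMRTbell libraries after extraction with a stool DNA kit, per the labels' protocols, which name rumen digesta where the sample labels name colonic or cecal contents. The values are whole-number counts per sequence variant and library, deposited by the authors with a taxonomy table; for the denoising tool, its filters and the taxonomy reference nothing is stated in the labels or the file headers. The lowest count above 0 is 2. Variants with no taxon held at most 0.441% of a library and stayed in its total.

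Counts were summed by genus and family. The main test was edgeR 4.0.16's quasi-likelihood test with total counts as library sizes, on features with at least 3 counts in at least 5 libraries, with light cycle as a covariate for diet and site, and Benjamini-Hochberg adjustment over all features at a threshold of 0.05. The SE beside an edgeR fold is the absolute log2 fold change divided by the square root of the test's F statistic. It is an approximate value, and no interval for a fold against a group near 0 counts. Light cycles were tested within each site and diet, over the 5 cycles together and each against LD12/12. Alternatives were TMMwsp factors, DESeq2 1.42.0, limma 3.58.1 on centred log-ratios (pseudocount 0.5), no filter, a replicate block and leaving out replicates. A permutation test of library labels (100000 resamples, log2 of scaled counts plus 1, smallest p 1e-05) was added after seeing the data. On simulated counts for cecum against colon on chow, the edgeR fit of single variants called too many unchanged variants. The permutation test did not in a separate simulation with other dispersions, made for that contrast and for light in cecum CD libraries. The edgeR fits of single variants for diet and for light were not simulated, so their error there is not known. Variants are given by the permutation test first, and the cause was not tested. P-values measure the spread between libraries, and the mice were caged separately. Tests that join cecum and colon libraries treat them all as separate mice, which the labels do not settle.

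The chi-square of 301 library pairs within groups was at least 12.0 per degree of freedom, so none was a duplicate. Libraries with the same number in cecum and colon had deviations that correlated at -0.237 to 0.110 (ABX) and -0.231 to 0.509 (CD), with 1 of 29 and 9 of 30 over 0.1. The numbers were not taken as pairs, but these correlations alone cannot settle whether some were. The members, the lists of related families and background genera and the tests were chosen with earlier results of these data known. All genera of the family are named, and of the variants the 10 most counted and any called for light. Other variants called between the sites or seen with antibiotics were named after their values were seen. No sequence is printed here. Figures were drawn with matplotlib 3.10.9.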

Additional observations from a re-analysis of the deposited data

Results flagged for a closer look

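The family's share, the Enterorhabdus share and the number of variants were each examined in the same 20 groups of 5 to 7 libraries, which made 60 checks, and 11 values stood apart from the rest of their group by Dixon's criterion at its 95% critical value. For normally distributed values chance alone gives such a value in about 1 in 20 groups. Many values here are zeros or small counts, so that rate need not hold for them. The family and Enterorhabdus values of 1 library are nearly the same measurement. In cecum CD LD0/24, replicate 2 held 6.72% Eggerthellaceae and 6.58% Enterorhabdus, where the other libraries reached 2.51% and 2.37%. In cecum CD LD24/0, replicate 3 held 5.38% and 5.35%, where the others reached 1.95% and 1.90%. Both lie within the range of cecum CD LD16/8, where the highest library held 7.05% Enterorhabdus.

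The other such values were in antibiotic libraries and rest on few counts. Replicate 5 of cecum ABX LD8/16 held 0.0230% of the family, all of it Enterorhabdus, where the others reached 0.00721%. Replicate 3 of colon ABX LD16/8 held 0.0137% in 2 variants, and the other 5 libraries were at 0. Replicate 6 of cecum ABX LD16/8 had 3 variants where the others had 0 to 1, and replicate 6 of cecum ABX LD0/24 had 0 where the others had 2 to 3.

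The diet effect of Eggerthella was called different between the sites in edgeR (fitted log2 value 4.05, adjusted p = 3.40e-04) and not with limma (0.29, adjusted p = 0.514). The fitted values set 0 counts in colon ABX and 2 in cecum CD libraries against the others and are no measure of size. It rests on 1 light cycle at each site, LD0/24 in cecum ABX and LD8/16 in colon CD libraries.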

How the results depend on the processing

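The direction and call of Enterorhabdus and of the family with antibiotics and between cecum and colon on chow were the same in every alternative run. Of 272 results recomputed under another setting, 230 kept their direction and side of the threshold. The contrast of the sites with antibiotics and the light contrasts of Enterorhabdus outside cecum ABX, none of them called, turned sign in places, and the cause was not tested. Cecum over colon with antibiotics was -0.17 with TMMwsp factors. On colon chow, LD0/24 against LD12/12 was 0.63 with TMMwsp, 0.40 with DESeq2 and 0.64 with limma, and LD8/16 was -0.024 with DESeq2 and -0.048 with the replicate block. On colon ABX, LD0/24 was -0.18 with limma and -0.71 with the block, LD8/16 was -0.39 with the block, and LD16/8 was 0.10 with TMMwsp and 0.25 with DESeq2. On cecum chow, LD8/16 was 0.21 with TMMwsp, 0.21 with DESeq2 and 0.34 with limma, and LD24/0 was -0.0063 with limma. In the colon, limma gave 0.61 for Adlercreutzia and 0.35 for Parvibacter with antibiotics, values fitted against libraries at 0 that are no measure of size. Adlercreutzia was called for light on colon chow with TMMwsp (adjusted p = 0.0332) and no filter (0.0107), where 48 of 222 and 95 of 376 genera were.

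The light calls of Enterorhabdus in cecum ABX libraries were kept with TMMwsp and lost under the other settings run. LD8/16 against LD12/12 was 4.10 with DESeq2, 1.42 with limma, 4.93 with no filter and 4.29 with the replicate block, and LD24/0 was 4.52, 2.97, 4.85 and 4.44 in the same order, all fitted against libraries at 0 and no measure of size. The family's adjusted p for any light cycle was 0.0869 with TMMwsp, 0.0627 with DESeq2, 0.109 with limma, 0.0628 with no filter and 0.0789 with the block. The Enterorhabdus interaction of diet and site was called at -3.20 with TMMwsp, -1.60 with DESeq2 and -1.94 with limma. In the same order, 175, 95 and 192 of 322 genera were called for it. The number of family variants called between the sites on chow was 18 with TMMwsp, against 11 in the edgeR fit, all higher in the cecum. Of all 1700 variants tested, 196 were called higher with TMMwsp and 155 in the edgeR fit. For light on chow the permutation test called 0 family variants at each site, against 1 in the colon and 6 in the cecum with edgeR. The replicate block changed no other call of Enterorhabdus or the family.

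Leaving out 1 library at a time, the log2 values against LD12/12 on colon chow ran over -0.49 to 0.21 (LD0/24), -0.32 to 0.37 (LD8/16) and -0.10 to 0.62 (LD24/0). On colon ABX they ran over -0.22 to 1.55 (LD0/24), -3.70 to 1.16 (LD16/8) and -1.24 to 1.16 (LD24/0). On cecum chow they ran over -0.34 to 0.88 (LD0/24), -0.37 to 0.41 (LD8/16) and -0.33 to 0.76 (LD24/0). On cecum ABX they ran over 4.82 to 5.65 (LD0/24), 3.59 to 5.19 (LD8/16) and 4.56 to 5.11 (LD24/0), with calls lost in 8 LD8/16 and 21 LD24/0 refits. The family's adjusted p in cecum ABX ran over 0.0302 to 0.103. Antibiotic values rest on at most 15 Enterorhabdus counts a library, so the depth does not allow a light effect there to be sized.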

Other observations

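Of 8 Actinobacteria genera often met on skin or in reagents, 3 were tested, Actinomyces, Corynebacterium and Rothia, some of which also live in the mouth and gut; their source here was not tested. With antibiotics 3 of 3 were called higher in the cecum, where 33.3% of all genera were, and 3 of 3 lower in the colon, where 64.3% were. On chow 3 of 3 were lower in the cecum than in the colon, where 29.8% were. Their part in the Eggerthellaceae values was not tested. The site ratio of 3.30 leaves them out together with the 5 leading genera of antibiotic libraries.

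Of 23 other Actinobacteriota families listed, 6 were tested with antibiotics in the cecum, 3 higher and 2 lower, where 43.6% and 45.5% of all families were. In the colon 8 were tested, 4 higher and 3 lower, where 18.8% and 55.4% were. On chow, 1 of 3 other Coriobacteriia families and 2 of 5 chow-gut families were higher in the cecum than in the colon, where 10.9% of all families were.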
